A study of Mus musculus with 10 samples.

Results

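Late-opening forskolin peaks are stretches of chromatin in cultured mouse adipocytes that were no more open than in vehicle-treated cells after 4 h of forskolin but were clearly more open after 3 days. They were selected on their own measured values. A peak was taken when its mean level after 3 days of forskolin was at least 2 CPM (counts divided by the library's total and multiplied by 1000000) and at least 75% above the vehicle mean, when both 3-day libraries lay above both vehicle and both 4 h libraries, and when the 4 h mean was less than 25% above the vehicle mean, with 0.25 CPM added to each mean before a ratio was taken. This rule found 778 of the 122984 peaks in the deposited count table, 0.633% of them. The levels in the vehicle, 4 h and 3-day groups therefore chose the peaks and are given below as a description, without a test. The forskolin 1-day and rosiglitazone libraries played no part in the choice, and the comparison between these groups is the one that was tested.

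The assay was ATAC-seq: a transposase enters nuclei, cuts exposed DNA and leaves sequencing adapters at the cuts, so that read counts report how open a region is. The cells were MAP cells, an immortalized line of mouse adipocyte progenitors, differentiated into adipocytes in a medium with insulin, dexamethasone, isobutylmethylxanthine and rosiglitazone. Every group, the vehicle control included, had thus seen rosiglitazone and a phosphodiesterase inhibitor during differentiation. From day 7 or 8 the cells received vehicle, forskolin for 4 h (FSK4h), for 1 day (FSK1D) or for 3 days (FSK3D), or rosiglitazone for 3 days (Rosi3D), with 2 libraries in each of the 5 groups, each made from 10000 sorted nuclei. The cells are of a single line, and no label says if paired libraries were separate cultures, so p-values measure the spread between these libraries, which may be technical.

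Forskolin activates adenylyl cyclase directly and raises cyclic AMP (cAMP), the second messenger by which noradrenaline acts on fat cells. cAMP releases the catalytic subunits of protein kinase A (PKA), which phosphorylate lipases and the transcription factor CREB within minutes, and CREB activates immediate targets through cAMP response elements. Later changes in chromatin depend on factors that are themselves made after stimulation and on enhancers that open slowly. Rosiglitazone is an agonist of PPARγ, the nuclear receptor that drives fat cell differentiation and, on prolonged exposure, turns on part of the brown fat programme.

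Most of the late-opening peaks were away from the ends of genes. Only 56 of the 778 (7.20%, 95% exact binomial interval 5.48 to 9.25%) lay within 1 kb of either end of a protein-coding gene in the RefSeq annotation of GRCm38.p6, against 13.2% of all peaks and 19.4% of other peaks with a 3-day mean of 2 CPM or more. Inside gene bodies lay 387 peaks (49.7%), 280 (36.0%) lay outside genes within 100 kb of a gene end, and 55 (7.07%) lay farther away. Peaks that were at least 75% above vehicle at both 4 h and 3 days, called early and lasting here, numbered 6821, and 3.68% of these were at gene ends. The intervals of the late-opening and the early and lasting shares do not overlap, the latter running from 3.25 to 4.15%. The annotation used gives gene bounds without the direction of transcription, so a gene end can be a start or a stop. The late-opening peaks had a median width of 388 bp (quartiles 274 and 524 bp) against 358 bp for all peaks and 520 bp for other peaks with a 3-day mean of 2 CPM or more, and 27 were wider than 1 kb.

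Promoter sequences from RefSeq (GRCm38.p6) could be set beside the few members that reach a transcription start. Of the 250 bases before each listed start, 21 members covered at least a part, and in 12 of these the gene was protein-coding. The table holds 79.9% of the protein-coding genes. The 5 protein-coding windows that members covered for at least 200 bases are printed below, as the stretch inside the peak, because they are the promoters at which the late rise was itself measured. Capitals mark matches on either strand to 7 short motifs: the core of the cAMP response element (TGACG), the AP-1 site (TGANTCA), the C/EBP site (TTGCNNAA), the nuclear receptor hexamer (AGGTCA), the E-box (CACGTG), the TEAD site (GGAATG) and the STAT site (TTCNNNGAA). Matches to different motifs may overlap.
Anxa8 (chr14:34085729-34085978, plus strand): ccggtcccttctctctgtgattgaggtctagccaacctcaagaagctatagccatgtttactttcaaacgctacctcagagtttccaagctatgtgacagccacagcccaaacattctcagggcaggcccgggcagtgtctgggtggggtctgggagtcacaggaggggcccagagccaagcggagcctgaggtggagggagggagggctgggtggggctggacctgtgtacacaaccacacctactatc
Serpina3i (chr12:104262872-104263121, plus strand): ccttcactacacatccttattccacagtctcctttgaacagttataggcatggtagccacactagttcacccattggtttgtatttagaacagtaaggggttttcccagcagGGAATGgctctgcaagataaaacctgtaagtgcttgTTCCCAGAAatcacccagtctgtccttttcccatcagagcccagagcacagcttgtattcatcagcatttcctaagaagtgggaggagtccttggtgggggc
Slc8a2 (chr7:16129576-16129825, plus strand): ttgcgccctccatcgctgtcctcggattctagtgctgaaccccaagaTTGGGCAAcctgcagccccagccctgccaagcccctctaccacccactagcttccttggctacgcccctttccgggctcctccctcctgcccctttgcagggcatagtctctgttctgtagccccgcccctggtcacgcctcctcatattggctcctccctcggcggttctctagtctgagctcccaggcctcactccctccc
Kif26a (chr12:112146001-112146207, plus strand): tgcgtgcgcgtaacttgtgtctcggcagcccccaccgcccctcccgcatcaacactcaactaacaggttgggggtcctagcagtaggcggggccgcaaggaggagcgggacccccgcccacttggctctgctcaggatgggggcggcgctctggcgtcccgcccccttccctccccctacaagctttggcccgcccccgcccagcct
Ccl8 (chr11:82114938-82115184, plus strand): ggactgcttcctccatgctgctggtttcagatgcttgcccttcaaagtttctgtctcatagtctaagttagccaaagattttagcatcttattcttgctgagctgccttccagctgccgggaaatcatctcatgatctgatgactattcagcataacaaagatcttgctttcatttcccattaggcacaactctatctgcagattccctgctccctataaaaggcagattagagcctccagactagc

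Anxa8 encodes an annexin, a calcium-dependent phospholipid-binding protein, and Serpina3i a serine protease inhibitor. Slc8a2 encodes a sodium-calcium exchanger, Kif26a a kinesin-like protein and Ccl8 a chemokine. The Slc8a2 and Kif26a windows belong to starts inside the gene, 1920 and 2027 bp from its listed end. In these 5 stretches the Serpina3i one holds a TEAD match and a STAT match, the Slc8a2 one holds a C/EBP match, and the other stretches hold no match to the 7 motifs. Over all 32851 windows of 250 bases, a cAMP response element core is found in 17.8%, an AP-1 site in 6.75%, a C/EBP site in 9.56%, a nuclear receptor hexamer in 14.0%, an E-box in 6.02%, a TEAD site in 12.6% and a STAT site in 7.02%. Among the 24 windows that members touch, including those of non-coding genes, 4 hold the TEAD site and 1 the E-box. The AP-1 site, the C/EBP site and the nuclear receptor hexamer are in 3 each. The cAMP response element core and the STAT site are in 2 each, but the 2 windows with the core overlap and share 1 site. Of the 14356 windows with any peak, 26.8% hold the core, 5.64% the AP-1 site and 7.73% the C/EBP site. The hexamer is in 10.5%, the E-box in 8.26%, the TEAD site in 10.6% and the STAT site in 5.64%. These matches describe letters in a window and say nothing of which factor was bound. With rosiglitazone the 5 peaks parted. At Serpina3i the levels were 3.17 and 4.21 CPM with vehicle, 4.51 and 2.48 at 4 h, 8.70 and 10.3 at 1 day, 11.1 and 7.98 at 3 days and 3.31 and 5.46 with rosiglitazone. The Anxa8 levels were 2.69 and 1.69 CPM with vehicle, 5.18 and 4.38 at 1 day and 1.90 and 1.53 with rosiglitazone. At Ccl8 they were 1.06 and 1.15 with vehicle, 1.76 and 2.06 at 1 day and 2.74 and 1.84 with rosiglitazone, so that the last 2 groups overlapped. Kif26a had 1.06 and 2.37 CPM with vehicle, 4.59 and 4.75 at 1 day and 1.20 and 1.90 with rosiglitazone, and Slc8a2 had 0.961 and 1.46, 2.59 and 1.90, and 3.09 and 1.66. The peaks at Anxa8, Serpina3i and Kif26a were called higher at 1 day of forskolin than with rosiglitazone in the test described below, and those at Ccl8 and Slc8a2 were not called.

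In the vehicle libraries the 778 peaks were weak, with a median group mean of 1.67 CPM. The median was 1.66 CPM at 4 h, 2.86 at 1 day, 3.53 at 3 days and 2.09 with rosiglitazone. By library, the medians were 1.63 and 1.69 CPM with vehicle, 1.66 and 1.76 at 4 h, 2.88 and 2.80 at 1 day, 3.68 and 3.38 at 3 days and 2.14 and 1.96 with rosiglitazone. The 2 libraries of a group were thus closer to each other than to any library of another group, save for vehicle and 4 h, which the rule holds together. Together the peaks took up 0.181% and 0.182% of the counts in the vehicle libraries and 0.399% and 0.366% in the 3-day libraries. The median member had between 17 and 60 counts in a library, so that single peaks are known only roughly. Total counts ran from 10410233 to 18935287 per library. On this scale the median of all tested peaks also moved, by 0.17 on the log2 scale at 1 day, 0.10 at 3 days and 0.09 with rosiglitazone, against 0.69, 0.96 and 0.20 for the members.

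**Figure D1:**
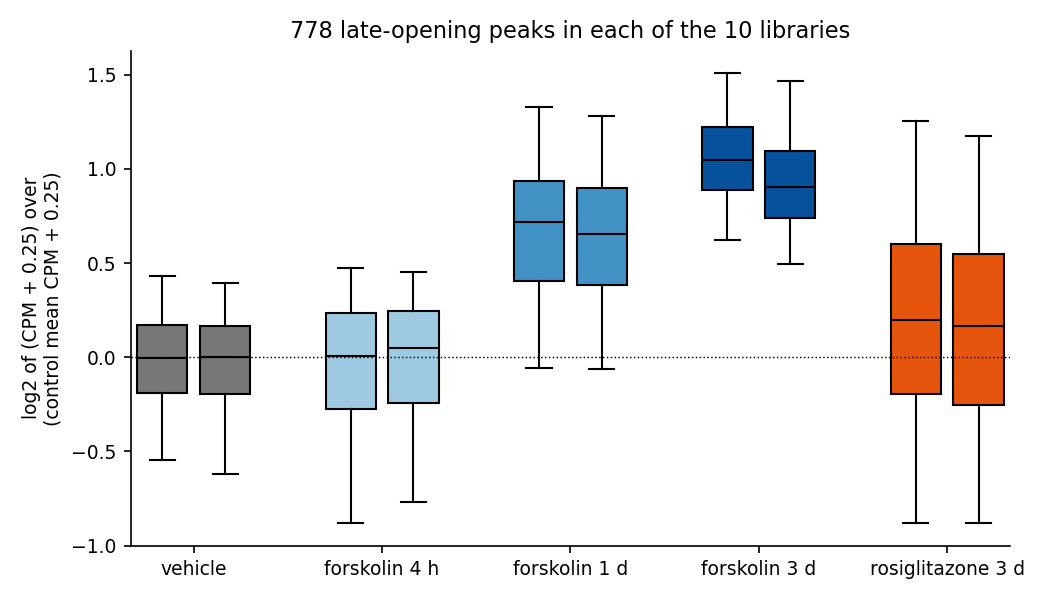
Level of the 778 late-opening peaks in each library, as log2 of (CPM + 0.25) over the vehicle mean treated alike (box, quartiles and median; whiskers, 5th to 95th percentile of peaks). The vehicle, 4 h and 3-day levels were used to choose the peaks, and the 1-day and rosiglitazone libraries were not, with library medians of 0.72 and 0.65 at 1 day and 0.20 and 0.17 with rosiglitazone.

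The rule looked only at vehicle, 4 h and 3 days. The 1-day libraries were then placed on the rise between vehicle and 3 days. At 1 day the median peak had covered 60.5% of that rise (quartiles 36.0 and 87.9%). The rule favours low vehicle and high 3-day values, so both ends of the rise were chosen. A rise enlarged by this choice makes the 1-day share smaller, and the share is given as a description. Both 1-day libraries lay above both vehicle libraries in 609 members (78.3%), where 39.9% of all peaks did so, and above both vehicle and both 4 h libraries in 552 (71.0%), against 12.8% of all peaks. These counts share the vehicle and 4 h columns with the rule and are a description. In 389 members (50%) both 3-day libraries were above both 1-day libraries, against 14.6% of all peaks, and in 26 (3.34%) the reverse held, against 25.6%. The members were chosen for high 3-day levels, so nothing is read from this difference from all peaks. Put together, 208 members had 1 day above vehicle and 4 h and below 3 days. In 344, 1 day was above vehicle and 4 h and overlapped or exceeded 3 days. A further 181 had 1-day libraries that overlapped vehicle or 4 h and lay below 3 days. The other 45 had 1-day libraries that overlapped both. The columns of the rule enter all 4 patterns, and their shares over all peaks were not counted. They are therefore not read as classes of time course.

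The peaks that had gone through the whole rise by 1 day include a peak in Medag, a gene of mesenteric adipogenesis. Its level was 2.98 and 4.75 CPM with vehicle, 4.71 and 3.63 at 4 h, 11.1 and 10.5 at 1 day and 8.60 and 6.91 at 3 days. In all, 129 members were at or above their 3-day mean after 1 day. At the other end, 131 members had covered less than 25% of the rise at 1 day, and 35 of these stood below their vehicle mean. A peak in Setd2, which encodes a histone methyltransferase acting on lysine 36 of H3, had 2.88 and 3.29 CPM with vehicle, 1.46 and 2.00 at 4 h, 2.71 and 2.85 at 1 day and 5.59 and 6.14 at 3 days. A peak outside Ddr1, a collagen receptor tyrosine kinase, had 4.42 and 6.66, then 2.12 and 2.78, then 4.76 and 5.02, then 10.6 and 14.1 CPM in the same order. In these last 2 peaks the 4 h libraries were the lowest of all and 1 day was level with vehicle. Among the slow members library S8 was more than 1.5-fold above S7 in 17 and the reverse held in 14, while among the other 647 the counts were 25 and 87. Over all 71621 peaks with a 3-day mean of 2 CPM or more the counts were 1600 and 7367. S7 and S8 helped choose the members and set the share of the rise, so nothing is read from these counts.

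The size of the late rise was modest. The ratio of the 3-day to the vehicle mean ran from 1.7505 to 4.27 with a median of 1.94, and 317 members reached 2-fold and 14 reached 3-fold. The highest ratio was at a weak peak in Ptpn11, the gene of the phosphatase SHP2, with 0.29 ± 0.41 CPM with vehicle and 2.05 ± 0.03 CPM at 3 days (mean ± SD, n = 2). The highest level was at a peak 14112 bp wide near Dsg2, a desmosomal cadherin, with 41.4 and 41.4 CPM with vehicle, 30.8 and 29.2 at 4 h, 46.5 and 43.9 at 1 day, and 69.2 and 76.8 at 3 days. Next came a gene-end peak of Tbc1d2b, a Rab GTPase-activating protein, with 22.1 and 26.1, 24.8 and 27.6, 53.3 and 49.1, and 54.0 and 45.7 CPM. Just inside the threshold on the ratio stood peaks of Rasl12 and Hebp2 at 1.7505 and 1.7508, and just outside it peaks of Creb5 and Agap1 at 1.7495 and 1.7477.

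The comparison of 1 day of forskolin with 3 days of rosiglitazone sets the late-opening peaks under the cAMP stimulus beside the same peaks under a PPARγ agonist, at unequal durations. For 239 members (30.7%) accessibility was higher after forskolin, for 34 (4.37%) it was higher with rosiglitazone, and for 505 the comparison made no call (edgeR's quasi-likelihood test, with p-values adjusted by Benjamini-Hochberg over the 118954 tested peaks and a threshold of 0.05). All 778 members were among the tested peaks. Of all tested peaks 16.4% were higher after forskolin and 10.8% higher with rosiglitazone, and of other peaks with a 3-day mean of 2 CPM or more the shares were 20.4% and 12.0%. The early and lasting peaks stood far from both, with 70.2% higher after forskolin and 1.26% higher with rosiglitazone. The median log2 fold change was 0.44 over the members (quartiles -0.01 and 0.97), -0.02 over all tested peaks and 1.17 over the early and lasting peaks. The number of members lower after forskolin fell to 15 without library S9 (rosiglitazone), 16 without S5 and 17 without S6 (both 1 day), of 34, with fewer calls over all peaks as well. Members higher after forskolin were also fewer without S5, S6, S9 or S10, again with fewer calls over all peaks.

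**Figure D2:**
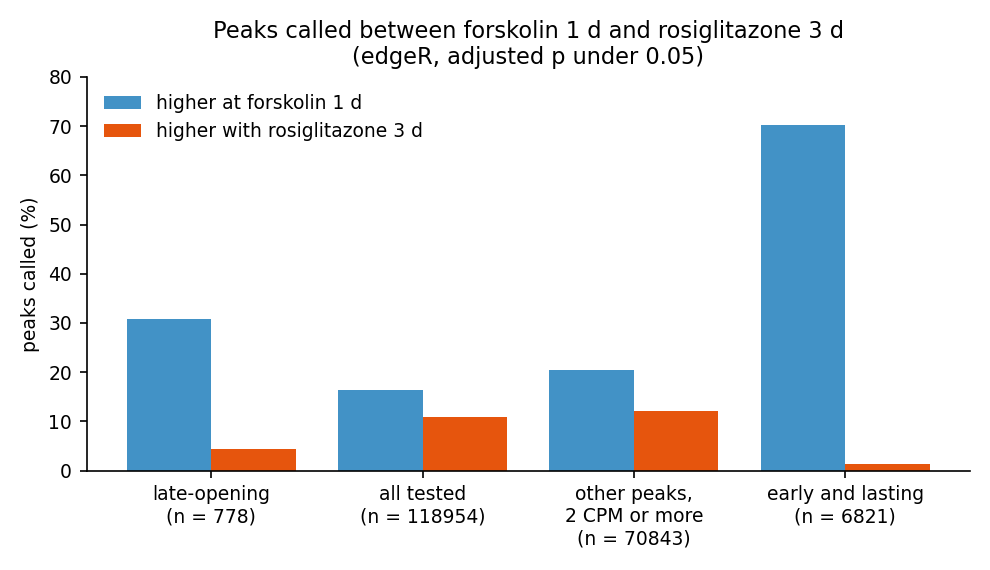
Share of peaks called between 1 day of forskolin and 3 days of rosiglitazone in 4 sets of peaks (bars, percent of tested peaks in each direction; edgeR, adjusted p below 0.05). Of the late-opening peaks 30.7% were higher after forskolin and 4.37% with rosiglitazone, between all tested peaks (16.4% and 10.8%) and the early and lasting peaks (70.2% and 1.26%).

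Called peaks differed in level and in time course as well as in the direction of the call. The 239 members higher after forskolin had median group means of 2.23 CPM with vehicle, 2.50 at 4 h, 4.79 at 1 day, 5.20 at 3 days and 1.82 with rosiglitazone, and their median share of the rise at 1 day was 86.8%. The 34 lower ones had 1.64, 1.57, 2.15, 3.61 and 4.56 CPM in the same order and a share of 31.0%. The 505 without a call had 1.49, 1.47, 2.40, 3.13 and 2.08 CPM and a share of 50.8%. The 1-day level enters both the call and this share, so their relation is not independent. Among the 131 slow members 6 were called higher after forskolin and 15 lower, and among the other 647 the numbers were 233 and 19. Beside vehicle, both rosiglitazone libraries were higher in 296 members (38.0%) and lower in 132 (17.0%), against 31.2% and 18.5% of all peaks. In all 34 of the lower members both rosiglitazone libraries exceeded both vehicle libraries, while among the 239 higher ones this was so in 17 and the reverse in 107.

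**Figure D3:**
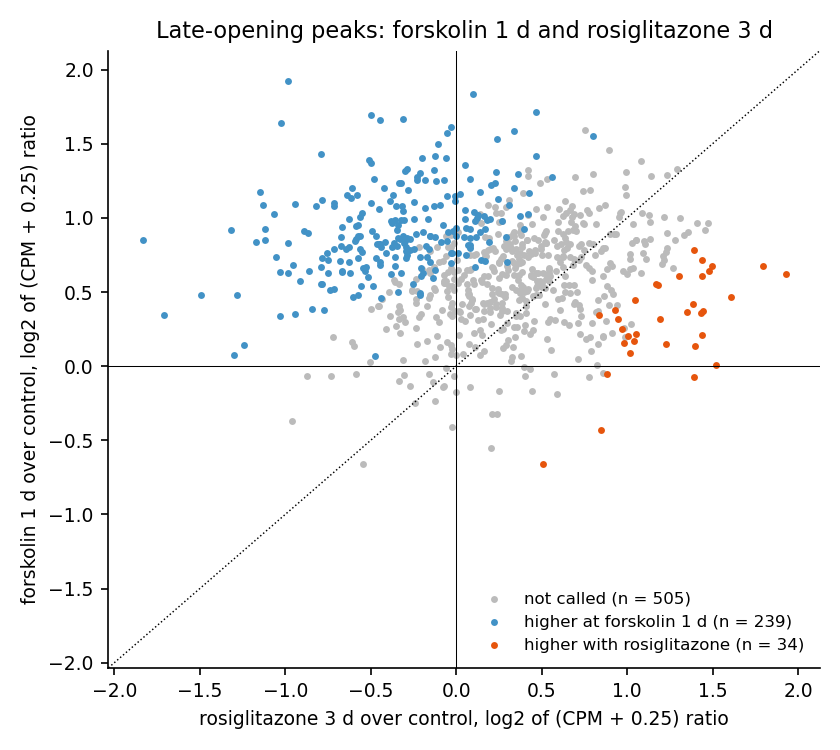
Each point is a late-opening peak, with its log2 ratio to vehicle (CPM + 0.25) after 3 days of rosiglitazone on the x axis and after 1 day of forskolin on the y axis; the dotted line marks equal ratios. Blue points (239) were called higher after forskolin, orange points (34) higher with rosiglitazone and grey points (505) were not called; the vehicle mean is shared by both axes.

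Genes of the cAMP pathway itself had 6 late-opening peaks, 0.686% of their 874 peaks, close to the 0.633% of all peaks. Of these 6, 5 were called higher after forskolin than with rosiglitazone and 1 was not called. Over all members 30.7% were called higher, and over all tested peaks 16.4%. Lists this short allow no share to be read, here or in the lists that follow. Prkar1b encodes a regulatory subunit of PKA, which holds the kinase inactive until cAMP binds. The peak in its body at chr5:139118159-139119170 had 10.2 and 10.3 CPM with vehicle, 7.17 and 6.66 at 4 h, 24.996 and 25.1 at 1 day, 26.7 and 23.8 at 3 days and 9.56 and 7.79 with rosiglitazone. Both later forskolin groups lay far above every other library, and the 4 h libraries were the lowest. The log2 fold change between 1 day and rosiglitazone was 1.48 (SE 0.15, edgeR adjusted p = 2.82e-13).

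Phosphodiesterases, enzymes that break down cAMP, had 4 of the 6. A peak in Pde8a at chr7:81247899-81248266 had 1.34 and 1.07 CPM with vehicle, 1.20 and 1.94 at 4 h, 3.41 and 3.06 at 1 day, 2.95 and 3.68 at 3 days and 0.844 and 1.23 with rosiglitazone, a log2 fold change of 1.57 (SE 0.39, edgeR adjusted p = 0.00109). In Pde4b there were 2 peaks. The stronger, at chr4:102493868-102494871, had 7.97 and 7.20 CPM with vehicle, 6.90 and 7.69 at 4 h, 14.5 and 14.7 at 1 day, 15.5 and 13.9 at 3 days and 10.5 and 9.63 with rosiglitazone. Its log2 fold change was 0.49 (SE 0.16, edgeR adjusted p = 0.0160). The weaker, at chr4:102545206-102545865, went from 1.15 and 3.14 to 5.70 and 4.59 CPM at 1 day and had 1.83 and 2.95 with rosiglitazone. Near Pde8b the levels were 4.61 and 4.60 CPM with vehicle, 10.1 and 8.61 at 1 day and 5.77 and 5.40 with rosiglitazone. The calls at both Pde4b peaks and at Pde8b were lost when single libraries were left out, with an adjusted p of up to 0.125 (without S10) and 0.137 (without S9) in Pde4b and 0.0985 (without S5) at Pde8b; the first Pde4b call was also lost without S5 or S6, the second without S5 and that of Pde8b without S10.

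Among adipogenic transcription factors and their cofactors 6 of 362 peaks (1.66%) were members, 2 called higher after forskolin and 4 not called. Rxra encodes the DNA-binding partner of PPARγ. A peak 8677 bp outside it had 6.72 and 5.97 CPM with vehicle, 11.4 and 10.5 at 1 day and 5.91 and 6.50 with rosiglitazone (log2 fold change 0.76, SE 0.19, edgeR adjusted p = 0.00109). A weaker peak inside Rxra, with 0.672 and 1.46, 2.00 and 2.06, and 2.11 and 2.15 CPM in these groups, was not called. Members in Stat5b, which encodes a cytokine-activated transcription factor, and in Tle3, a corepressor in fat cells, were not called either, with log2 fold changes of -0.81 and 0.15.

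Lipid genes were split. Acsl3 encodes an acyl-CoA synthetase on lipid droplets, and its peak at chr1:78701621-78702662 had 5.00 and 4.83 CPM with vehicle, 5.91 and 5.39 at 4 h, 9.65 and 10.3 at 1 day, 10.4 and 11.4 at 3 days and 3.38 and 4.48 with rosiglitazone. Its log2 fold change was 1.28 (SE 0.21, edgeR adjusted p = 1.34e-06). Lpl encodes lipoprotein lipase, a classical PPARγ target that frees fatty acids from circulating triglyceride. Its peak, 9964 bp outside the gene at chr8:68870320-68870591, had 0.768 and 1.15 CPM with vehicle, 0.730 and 1.63 at 4 h, 1.47 and 1.74 at 1 day, 2.46 and 1.69 at 3 days and 4.64 and 4.05 with rosiglitazone. Rosiglitazone thus had the highest mean at Lpl, where it had the lowest at Acsl3. The log2 fold change at Lpl was -1.48 (SE 0.36, edgeR adjusted p = 0.000912). Dgat2, which makes triglyceride, and Scd1, a fatty acid desaturase, had a member each without a call. Of 252 peaks at PPAR targets 2 were members, of 336 at genes of triglyceride and fatty acid synthesis 3, and none of the 137 peaks at lipolysis and lipid droplet genes.

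Thermogenic genes, which brown and beige fat cells use to make heat, had 2 members among 185 peaks. Ucp1 encodes the mitochondrial uncoupling protein. A peak 4498 bp outside it, at chr8:83285364-83285850, had 2.11 and 1.38 CPM with vehicle, 1.93 and 1.69 at 4 h, 3.47 and 2.96 at 1 day, 3.13 and 4.22 at 3 days and 1.90 and 3.87 with rosiglitazone. The rosiglitazone libraries spanned the 1-day ones, and the log2 fold change was 0.08 with an SE of 0.32, so that a difference of either sign is within the error. Kcnk3 encodes a potassium channel of the membrane. The peak outside it had 0.768 and 2.37 CPM with vehicle, 2.71 and 3.64 at 1 day and 1.48 and 0.614 with rosiglitazone, a log2 fold change of 1.58 (SE 0.41, edgeR adjusted p = 0.00224), but 1 vehicle library reached nearly the lower 1-day library and the call was lost without S6 or S10 (adjusted p of up to 0.119). Prdm16, a coregulator of brown fat identity, had 1 member, with 1.34 and 2.22 CPM with vehicle, 3.65 and 2.69 at 1 day, 2.76 and 4.07 at 3 days and 2.74 and 2.52 with rosiglitazone, and no call (log2 fold change 0.21, SE 0.32).

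**Figure D4:**
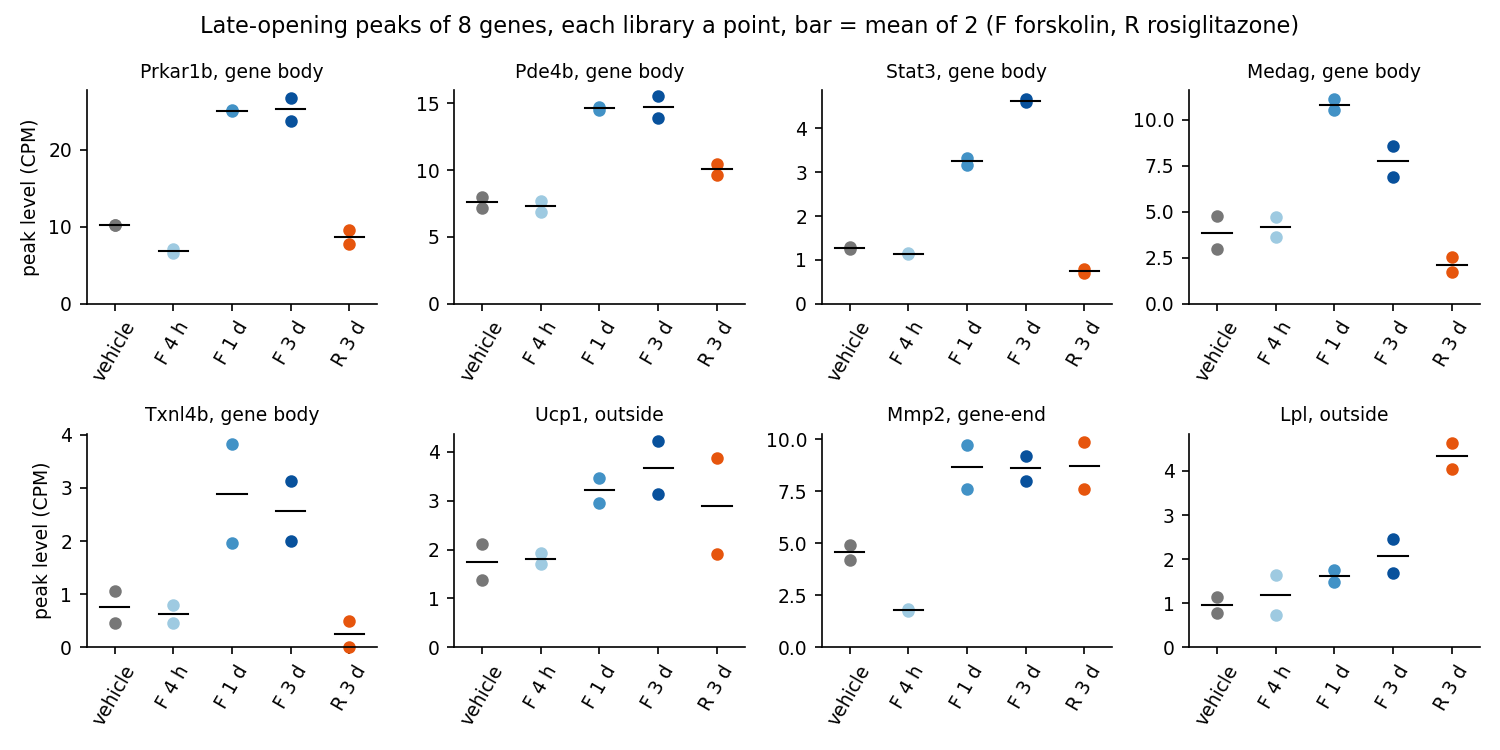
Level in CPM of a late-opening peak at each of 8 genes, with a point for each of the 2 libraries of a group and a bar at their mean. Prkar1b, Pde4b, Stat3, Medag and Txnl4b were higher at 1 day of forskolin than with rosiglitazone, Ucp1 and Mmp2 had no call, and Lpl was highest with rosiglitazone, at 4.64 and 4.05 CPM.

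Inflammatory signalling genes had 5 members among 462 peaks, with 2 called higher after forskolin. Stat3 encodes the transcription factor of the interleukin-6 family and of leptin. The peak at chr11:100901933-100902178 in its body had 1.249 and 1.30 CPM with vehicle, 1.13 and 1.15 at 4 h, 3.18 and 3.33 at 1 day, 4.67 and 4.60 at 3 days and 0.703 and 0.798 with rosiglitazone. The steps between groups were larger than the spread within them throughout, and the log2 fold change was 2.05 (SE 0.39, edgeR adjusted p = 2.81e-05). Socs3, the feedback inhibitor that Stat3 induces, had a strong peak 3474 bp outside the gene, with 13.9 and 11.6 CPM with vehicle, 20.6 and 21.2 at 1 day, 23.5 and 22.0 at 3 days and 15.0 and 16.5 with rosiglitazone. Its call (log2 fold change 0.36, edgeR adjusted p = 0.0441) was lost with DESeq2 (adjusted p = 0.14) and without S3, S4, S5, S6, S9 or S10 in turn.

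Genes of the extracellular matrix had 9 members among 819 peaks, with 2 called higher after forskolin and 7 not called. Mmp2 encodes gelatinase A. Its gene-end peak at chr8:92825858-92826454 had 4.90 and 4.21 CPM with vehicle, 1.86 and 1.76 at 4 h, 9.70 and 7.60 at 1 day, 9.21 and 7.98 at 3 days and 9.85 and 7.61 with rosiglitazone. The level at 4 h was below vehicle, and the later forskolin libraries and those of rosiglitazone covered the same range (log2 fold change -0.06, SE 0.20). Peaks outside Col1a2, a chain of collagen I, and Col6a3, a chain of collagen VI, were not called either. At Col1a2 the levels were 3.88 and 3.49 CPM after 1 day of forskolin, 4.05 and 4.07 after 3 days and 3.09 and 3.56 with rosiglitazone (log2 fold change 0.09, SE 0.30). At Col6a3 they were 4.29 and 4.38 at 1 day, 6.63 and 5.83 at 3 days and 6.05 and 5.40 with rosiglitazone, so that both 1-day libraries lay below both rosiglitazone libraries (log2 fold change -0.45, SE 0.24). A peak outside Col18a1 had 6.34 and 2.99 CPM with vehicle, 13.6 and 14.7 at 1 day, 17.6 and 15.5 at 3 days and 9.35 and 7.24 with rosiglitazone. Its call (edgeR adjusted p = 0.00247) was lost without S10 and with DESeq2, where the adjusted p was highest at 0.223.

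Ion channel and calcium handling genes had 9 members among 757 peaks, 4 called higher after forskolin, 1 lower and 4 not called. Atp2a3 encodes a calcium pump of the endoplasmic reticulum. The peak outside it had 11.3 and 11.3 CPM with vehicle, 11.2 and 12.3 at 4 h, 19.1 and 18.4 at 1 day, 19.6 and 20.5 at 3 days and 12.7 and 12.3 with rosiglitazone (log2 fold change 0.53, SE 0.14, edgeR adjusted p = 0.00347). Clock genes had 3 members among 244 peaks, among them Rora and Arntl. Rora, a nuclear receptor that activates Arntl, was called higher after forskolin, with 4.13 and 5.90 CPM with vehicle, 9.998 and 9.51 at 1 day and 5.77 and 4.85 with rosiglitazone (log2 fold change 0.83, edgeR adjusted p = 0.00106). In the remaining lists, signalling by TGF-beta, BMP, Wnt and Notch had 4 members of 664 peaks, axon guidance 6 of 743, glucose uptake and insulin signalling 3 of 596, and hypoxia and angiogenesis 3 of 345. There was none at the 167 peaks of lysosomal genes and their regulators and none at the 182 of other nuclear receptors. Each of the lists for adipokines, actin cytoskeleton, mitochondrial fatty acid oxidation and solute carriers had 1.

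Several of the widest gaps in favour of forskolin came from peaks whose mean was lower with rosiglitazone than with vehicle. In Txnl4b, which encodes a splicing-related thioredoxin-like protein, 2 members lie about 1 kb apart. The first, at chr8:109572426-109572653, had 1.06 and 0.460 CPM with vehicle, 0.465 and 0.787 at 4 h, 3.82 and 1.95 at 1 day, 3.13 and 2.00 at 3 days and 0 and 0.491 with rosiglitazone, with a log2 fold change of 3.37 (SE 0.58, edgeR adjusted p = 3.95e-06). Its rosiglitazone counts were only 0 and 8, so the size of this change is known only roughly. The rosiglitazone and vehicle libraries overlapped there, with S10 above S2. At the second, at chr8:109573524-109573833, the log2 fold change was 2.35 (SE 0.45, edgeR adjusted p = 3.20e-05). Dlg5 encodes a scaffold protein of cell polarity, and 2 members lie outside it. At the one at chr14:24087476-24087931 the levels were 2.79 and 2.22 CPM with vehicle, 5.06 and 4.38 at 1 day, 7.31 and 6.45 at 3 days and 0.492 and 0.552 with rosiglitazone, so that both later forskolin groups lay above vehicle and rosiglitazone below it. Near Nr5a1, which encodes the steroidogenic factor SF-1, the levels were 4.90 and 3.91 CPM with vehicle, 10.1 and 7.02 at 1 day and 1.83 and 1.41 with rosiglitazone (log2 fold change 2.34, SE 0.27, edgeR adjusted p = 1.05e-10). The Medag peak had 2.53 and 1.72 CPM with rosiglitazone and a log2 fold change of 2.30 (SE 0.25, edgeR adjusted p = 5.40e-12).

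Of the 34 members higher with rosiglitazone, those with the widest gap were in Plcb4 and Frmd4a. Plcb4 encodes a phospholipase C that G proteins activate. Its peak had 0.384 and 1.53 CPM with vehicle, 1.13 and 0.847 at 4 h, 1.06 and 0.739 at 1 day, 2.15 and 1.92 at 3 days and 2.95 and 2.88 with rosiglitazone, a log2 fold change of -1.75 (SE 0.44, edgeR adjusted p = 0.00130). The Frmd4a peak, in a gene for a scaffold of cell junctions, had 1.24 and 1.37 CPM at 1 day, 3.07 and 2.23 at 3 days and 5.41 and 2.95 with rosiglitazone. A gene-end peak of Slc26a8, an anion transporter, was stronger, with 5.00 and 4.60 CPM with vehicle, 5.82 and 6.65 at 1 day, 11.4 and 6.37 at 3 days and 13.4 and 11.9 with rosiglitazone (log2 fold change -1.06, SE 0.20, edgeR adjusted p = 1.85e-05). At Slc26a8 both 1-day libraries lay above vehicle, and 1 of the 3-day libraries lay within the 1-day range.

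Members seldom lay close together. Of the 778, 88 lay within 50 kb of another member, and of 627 genes with a member 586 had 1 and 40 had 2. Ptk2, the gene of focal adhesion kinase, had 5, all outside the gene on chromosome 15 within 35.2 kb. The peak at chr15:73451522-73451971 had 4.71 and 4.21 CPM with vehicle, 6.37 and 4.84 at 4 h, 12.9 and 9.14 at 1 day, 11.9 and 12.3 at 3 days and 3.87 and 4.60 with rosiglitazone (log2 fold change 1.31, SE 0.21, edgeR adjusted p = 6.30e-07). The next member, 4.5 kb on, had its highest mean with rosiglitazone, at 5.65 CPM against 4.22 at 3 days and 3.39 at 1 day (log2 fold change -0.79, edgeR adjusted p = 0.0226). That call was lost with DESeq2 (adjusted p = 0.0849) and without S6, S9 or S10. The other 3 members were not called. Between them stood 2 stronger peaks that are no members, with means of 34.4 CPM with vehicle and 63.1 at 4 h at the first and 18.3 and 33.1 CPM at the second. Peaks with higher levels at 4 h thus lay among the late-opening peaks on this stretch.

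**Figure D5:**
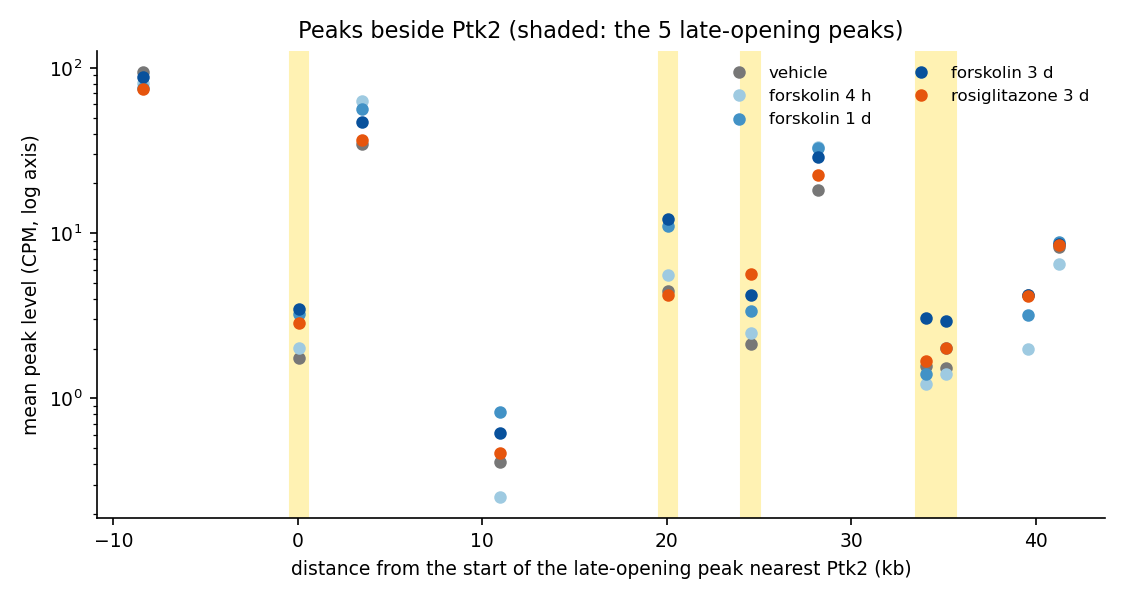
Mean level (CPM, log axis) in each of the 5 groups for the 11 peaks beside Ptk2, by distance from the start of the late-opening peak nearest the gene; shading marks the 5 late-opening peaks. At 20.1 kb the later forskolin groups stand above the rest, and at 24.5 kb rosiglitazone is highest at 5.65 CPM.

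Peaks within 10 kb of a member were called higher after forskolin more often than peaks farther away, but less often than the members. Within 10 kb of a member there were 1679 tested peaks that are no members, of which 22.2% were higher after 1 day of forskolin than with rosiglitazone and 8.81% lower, against 16.2% and 10.9% of peaks farther away. Within 50 kb the shares were 19.3% and 10.6% of 7442 peaks. Of all non-members with a 3-day mean of 2 CPM or more, near or far, 20.4% were higher and 12.0% lower. The neighbours were not matched for level, so no lean is read from their shares. An early and lasting peak lay within 10 kb of 108 members (13.9%) and within 50 kb of 349 (44.9%). Of other peaks with a 3-day mean of 2 CPM or more, 10.6% and 39.1% had one so near, and 11.6% and 40.5% of those away from gene ends, where 14.4% and 44.7% of the members did. Neighbouring peaks share their surroundings, and these shares are given without a test.

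At the ends of genes that carry a member few peaks were called. At the 462 such genes with a gene-end peak that was tested and is no member, 614 peaks were at hand. After 3 days of forskolin 30 of them (4.89%) were higher than with vehicle and 39 (6.35%) lower, against 2.7% and 6.96% of all 16055 gene-end peaks, with median log2 fold changes of -0.14 and -0.16. Between 1 day of forskolin and rosiglitazone 45 (7.33%) were higher and 71 (11.6%) lower, against 5.18% and 13.5%. With library-size scaling 38 were higher than vehicle and 20 lower, so neither direction can be read as the main one. The number lower than vehicle hung on single libraries, with 9 without S2, 10 without S7, 21 without S1, 22 without S9 and 125 without S8, and the number higher was 16 without S2 and 18 without S1. The members themselves, which were chosen on this contrast, were called higher in 370 cases (47.6%) against 8.49% of all tested peaks, and nothing is read from that.

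The labelled cell type was checked on gene-end peaks of marker genes. All 7 adipocyte markers had such a peak, with summed levels of 295 to 322 CPM in the vehicle libraries, 267 to 279 at 1 day, 283 to 295 at 3 days and 375 to 379 with rosiglitazone. Of the 6 progenitor markers 5 had one, at 76.4 to 77.2 CPM with vehicle, 82.6 to 88.6 at 4 h and 89.4 to 96.1 at 1 day. Their levels were 72.7 to 84.9 CPM at 3 days and 66.5 to 75.2 with rosiglitazone. Gene-end peaks were present for 3 of 6 macrophage markers, 1 of 4 endothelial markers, 1 of 3 muscle markers and 3 of 5 brown or beige markers. Macrophage levels were 29.3 to 31.6 CPM with vehicle, 39.3 to 39.6 at 4 h and 31.5 to 35.9 at 1 day. They were 38.1 to 38.4 CPM at 3 days and 38.6 to 41.0 with rosiglitazone. Endothelial levels were 2.50 to 3.37 CPM with vehicle, 1.59 to 2.24 at 4 h and 3.35 to 3.96 at 1 day. They were 3.38 to 3.81 CPM at 3 days and 5.15 to 5.27 with rosiglitazone. None of the 37 peaks at the macrophage and other immune list or the 63 at the endothelial list were members. Of the 46 at the muscle list 1 was, in Pax7. Of all peaks 0.633% were members, so lists this short would often hold none, and nothing is read from these counts. The part of other cells in these levels was not tested.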

How the data were processed

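ATAC-seq libraries of 5 groups of 2 were analysed from the authors' deposited table of raw counts per peak. Per the submitters' processing notes, the tools were fastp, Picard, SAMtools, Bowtie2, deepTools, MACS2 and featureCounts, with GRCm38 (mm10) and no versions or roles. Any shift of reads for the transposase and the merging of peaks are not given in the sources used here. The libraries carry the running numbers S1 to S10 (S1 and S2 vehicle, S3 and S4 4 h, S5 and S6 1 day, S7 and S8 3 days, S9 and S10 rosiglitazone).

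Levels (CPM) are counts divided by the column sum, times 1000000. The test was edgeR 4.0.16 (R 4.3.3) with TMM scaling, filterByExpr and robust quasi-likelihood fits over all 10 libraries and 118954 peaks, with a biological coefficient of variation of 0.163, Benjamini-Hochberg adjustment and a threshold of 0.05; SE is the fold change divided by the root of F. It was tested on simulated data. Peaks were assigned to protein-coding genes by gene end (1 kb), gene body, or nearest end within 50 kb. Alternatives were library-size scaling, DESeq2 1.42.0, no filter, a fit of the 2 groups alone, other rule settings and each library left out.

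The members and the gene lists were chosen with earlier results of these data known. Peaks named are the 10 highest by 3-day ratio and by 3-day level, those at the 10 genes with most members, members of up to 6 genes per list, the 8 most changed in each direction of the test, the 10 highest gene-end members, the 8 slowest and 8 fastest at 1 day, and the nearest on both sides of the threshold. The Ptk2 neighbours, the Kif26a and Slc8a2 peaks and the printed promoter sequences (by length covered) were chosen after their values were seen. Binomial intervals cover counting error only. No genome was used, so peak sequences outside promoter windows were not read. A few list members that the naming rule covers are not reported here.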

Additional observations from a re-analysis of the deposited data

How the results depend on the processing

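The number of members depends on the rule: 317 with a 2-fold threshold at 3 days, 395 with 1 CPM added before ratios, 1325 with a minimum of 1 CPM, and 641 with TMM-scaled CPM, against 778. With the 2-fold threshold 107 members (33.8%) were higher after 1 day of forskolin than with rosiglitazone and 7 (2.21%) lower, against 16.4% and 10.8% of all tested peaks. The median log2 fold change was then 0.55, and with library-size scaling of the 778 members it was 0.49. Leaving out each library gave medians of 0.42 to 0.48, 162 to 245 members higher and 15 to 37 lower. DESeq2 called 178 higher and 19 lower, all of them among the 239 and 34. Members of at most 1 kb, a setting chosen after seeing the data, gave 226 and 34. The gene-end share was 11.2% within 2 kb and 4.88% within 0.5 kb. With TMM-scaled CPM both 1-day libraries exceeded both vehicle libraries in 74.9% of members and 32.1% of all peaks. Gene-end peaks of the members' genes lower after 3 days of forskolin numbered 20 with library-size scaling, 25 with DESeq2, 18 in a fit of the 2 groups and 9 to 125 with a library left out, and those higher 54 with a 2 kb window and 16 to 30 with a library left out. Where these counts moved, the cause was not tested. The median log2 fold change over the members stayed positive in every alternative. The balance of these gene-end calls (30 higher, 39 lower) did not hold in every alternative. More were higher with library-size scaling (38 and 20) and without S7 (21 and 10), S9 (30 and 22) or S2 (16 and 9). The counts were even or nearly so in a fit of the 2 groups (21 and 18) and with a 2 kb window (54 and 53). The same was true without S4 (29 and 28) or S3 (28 and 28). In the other alternatives more were lower. Over the 128 named peaks and their alternatives, 1709 values kept their side of the threshold, 61 lost the call and 22 gained it. No paired analysis was possible because the columns carry running numbers and not the replicate numbers of the labels. The planned count of motifs and base composition over the peaks was not run, since no genome was used. Depth limits single peaks, with library medians of 17 to 60 counts per member.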
